A study of Mus musculus with 6 samples.

Results

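The genes described are 10 components of the nuclear speckle and of its neighbour, the paraspeckle, in double positive (DP) thymocytes, thymic T cell precursors with CD4 as well as CD8 on their surface. They are *Nsrp1*, the deleted gene, with *Son*, *Srrm1*, *Srrm2*, *Pnn*, *Acin1*, *Thrap3*, *Bclaf1*, *Malat1* and *Neat1*. The genes were picked by symbol from the 23183 symbols of the expression files, where *Nsrp1* stands under its older symbol *Ccdc55*. All 10 were found, and all 10 were among the 10326 genes tested, those that reached an FPKM of 1 in 3 or more libraries (FPKM, fragments divided by the transcript length in kilobases and by the depth of the library). WT libraries came from *Nsrp1* f/f mice and NSrp70-cKO libraries from *Nsrp1* f/f CD4Cre mice, with 3 libraries of sorted thymocytes each. Both genotypes carried the floxed *Nsrp1* alleles on the C57BL/6 strain, and the mice were 6 weeks old. The Cre transgene is driven by the *Cd4* promoter, which becomes active as thymocytes pass to the DP stage. Nothing in the sources states whether each library came from a separate mouse, so the p-values measure the spread between these libraries, which may be technical.

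Nuclear speckles are bodies without a membrane in the nucleus, where splicing factors rich in arginine and serine (RS domains) are stored and assembled. *Son* and *Srrm2* encode the large scaffold proteins around which speckles form, and *Malat1* encodes a long non-coding RNA that collects in them. Paraspeckles lie next to speckles and are built on the long non-coding RNA *Neat1*. NSrp70, the product of *Nsrp1*, is an RS-related splicing factor of the speckle.

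The targeting scheme of the study places loxP sites around exon 5 of *Nsrp1*. The exon number was assumed to follow the transcript Nsrp1-201 of GENCODE, and the sequences, lengths and codons given for the deletion rest on this. There exon 5 lies on the minus strand at chr11:77049273-77049480 of GRCm38 (mm10) and has 208 nucleotides, all of them coding. It is shown as the part of the transcript that the scheme would remove, in lower case and in the direction of transcription.
*Nsrp1* exon 5: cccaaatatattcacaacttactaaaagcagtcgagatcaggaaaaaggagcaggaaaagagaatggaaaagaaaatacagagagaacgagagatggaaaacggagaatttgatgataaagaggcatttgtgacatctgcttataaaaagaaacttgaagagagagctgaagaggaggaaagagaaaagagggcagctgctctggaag
The 208 bases are not a multiple of 3. Joining exon 4 directly to exon 6 in the annotated transcript put a stop codon in exon 6, which is in capitals in the joined sequence, whose first 15 bases are the end of exon 4.
*Nsrp1* exon 4 to exon 6: gggaaggatcggaagcacatttggatgTGA
The reading frame of the annotated transcript has 542 codons before its stop, and that of the joined transcript has 103, of which the last 4 follow the junction. These are properties of the annotated sequence and were not measured in the libraries.

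Exon 5 makes up 6.68% of the 3114 nucleotides of Nsrp1-201, whereas exon 7 makes up 79.09%. A transcript that lacks only exon 5 keeps 93.3% of its length, which would lower the FPKM by 0.10 on the log2 scale if nothing else changed. Both primers of the study's *Nsrp1* RT-PCR also match exon 7, at positions 803 to 822 and 1021 to 1040 of the transcript, outside the deleted exon.
*Nsrp1* forward primer: gaggacggtgaaaagcgaga
*Nsrp1* reverse primer: tcttttcttcccggtggctg
A gene-level FPKM of *Nsrp1* therefore counts mostly exons that the deletion leaves in place, and it is only a weak check of the genotype labels.

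**Figure D1:**
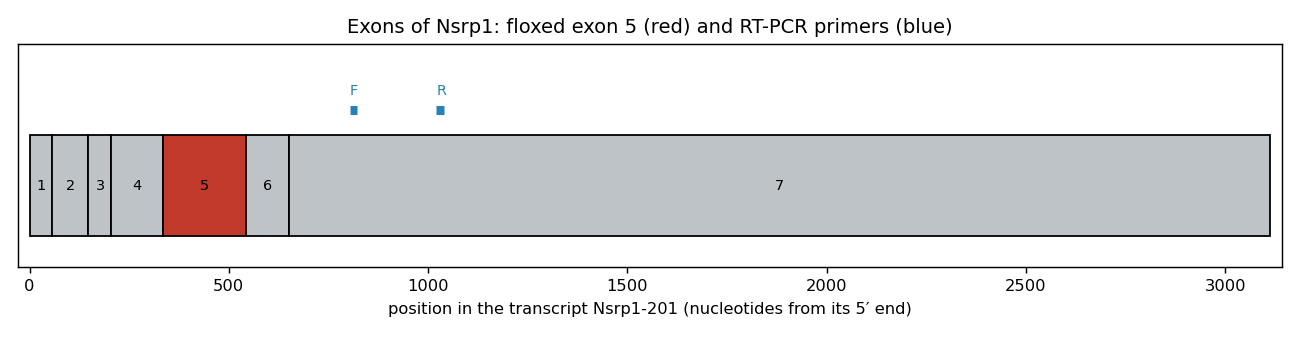
Exons 1 to 7 of the *Nsrp1* transcript Nsrp1-201, drawn to scale in nucleotides from its 5′ end. The floxed exon 5 (red) covers 6.68% of the transcript, and the RT-PCR primers (blue, F forward and R reverse) both lie in exon 7.

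Facts of the whole series that bear on these genes are few. The depth estimated from steps of 1 fragment in the FPKM values was 20.7 to 20.8 M fragments in WT (M, mega) and 13.2, 20.6 and 17.4 M in cKO 1, 2 and 3. WT libraries differed from each other by little more than counting noise, with a mean chi-square per gene of 1.50 to 1.61 (1 for counting noise alone), against 27.1 to 62.0 between cKO libraries. WT values are therefore given as single values or a range. In a second fit, the mean of the WT libraries entered as 1 sample, assumed to vary like the cKO libraries (“WT as 1 sample”). For the 10 genes, its adjusted p accompanies that of the main fit, which used all 6 libraries and median-of-ratios scaling. Adjusted p under other settings are given without it unless stated, and so count the WT libraries as separate samples. All 8 DP thymocyte markers were present at a summed FPKM of 4119 to 4164 in WT and 5392 to 6890 in cKO. The summed FPKM of 6 mature single positive markers was 129 to 130 in WT and 101 to 124 in cKO, and 5 of the 6 were lower in cKO by limma, with 1 higher. Of 3 double negative markers tested, 2 were lower in cKO. Markers of B cells stayed at a summed FPKM of 0.984 to 1.19 and those of myeloid cells at 3.78 to 4.72 over the 6 libraries. Erythroid markers summed to 1.40 to 2.17 in WT and 9.07 to 16.2 in cKO, thymic epithelial markers to 3.56 to 3.98 and 1.92 to 3.67, and *Foxn1*, the defining epithelial marker, was at 0 in all 6. *Xist* was at 69.8 to 72.0 in WT and 4.07 to 5.44 in cKO, and 4 genes of chromosome Y were at 0 in all WT and above 0 in all cKO libraries, so sex and genotype cannot be told apart in the comparisons that follow. The part of these differences in the values of the 10 genes was not tested. In bulk samples, fewer cells of a type and less RNA per cell cannot be told apart.

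In NSrp70-cKO DP thymocytes, 5 of the 10 genes were lower and 1 was higher than in WT (limma, adjusted p under 0.05). The lower genes were *Neat1*, *Srrm2*, *Acin1*, *Srrm1* and *Nsrp1*, in the order of their change, and the higher gene was *Son*. *Pnn*, *Thrap3*, *Bclaf1* and *Malat1* were not called. Over all 10326 genes tested, 29.8% were called lower and 35.8% higher. With WT as 1 sample, 4 of the 10 were called lower (*Neat1*, *Srrm2*, *Acin1* and *Srrm1*) and 0 higher (4 and 0 at an unadjusted p under 0.05), against 8.74% and 7.16% of all genes. Both of these shares of all genes are at an adjusted p under 0.05. No share of all genes at an unadjusted p is given, here or for the later counts at that threshold. *Neat1* and *Srrm2* fell by more than 2-fold, as did 4.71% of all genes tested. The 3 cKO values lay below all 3 WT values for 5 of the 10 genes and above them for 1, which was also the case for 33.4% and 39.1% of all genes. With every library scaled to the same FPKM total, 10 of the 10 genes were called lower, as were 6182 of all genes tested, with 903 higher. In the median-of-ratios scaling, the median log2 fold change was -0.35 over the 10 genes and 0.039 over all genes tested.

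**Figure D2:**
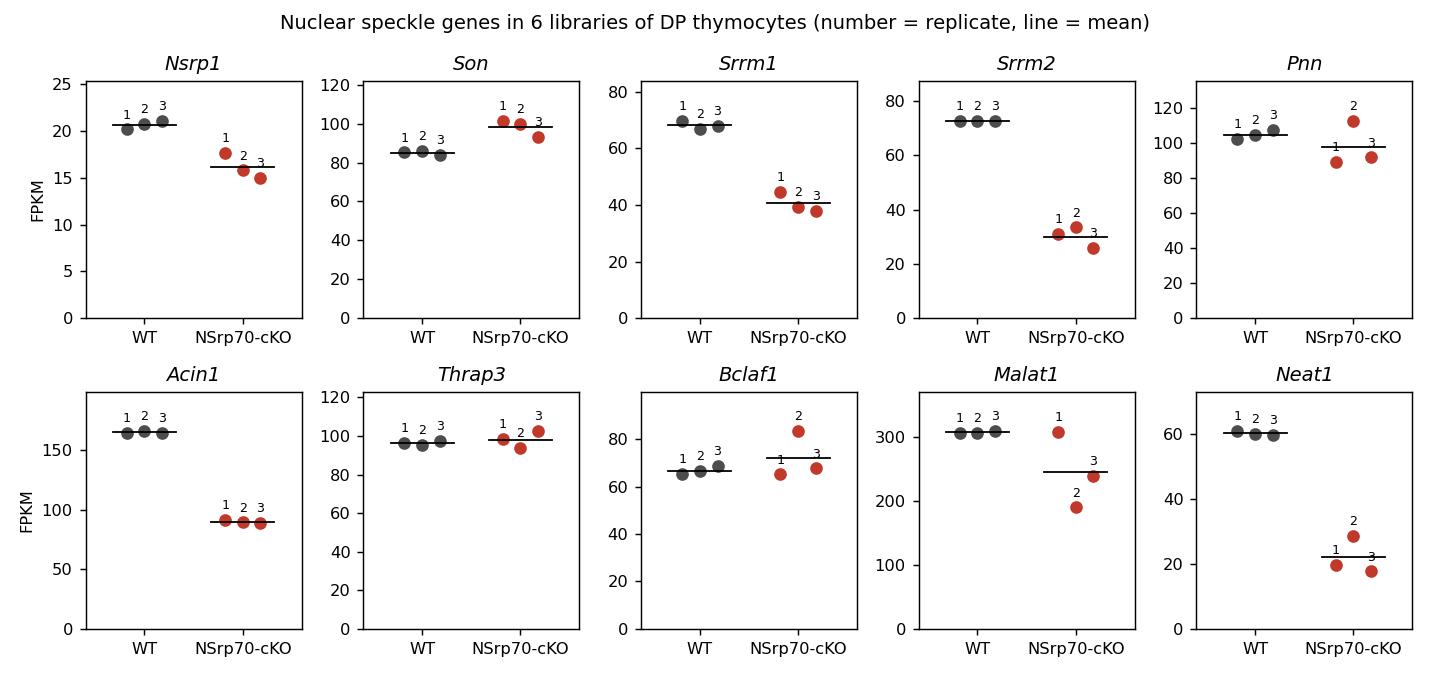
FPKM of the 10 genes in each library, 3 WT (grey) and 3 NSrp70-cKO (red), with the replicate number above each point, a line at the mean and a linear axis from 0 in each panel. The cKO points of *Neat1*, *Srrm2*, *Acin1*, *Srrm1* and *Nsrp1* lie below all WT points, those of *Son* lie above them, and the groups overlap for the other 4 genes.

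*Nsrp1*, at chr11:77044292-77078435 on the minus strand, was the least expressed of the 10 genes per length of transcript. Its FPKM was 20.2, 20.7 and 21.1 in the WT libraries and 17.7, 15.8 and 15.0 in the cKO libraries. All cKO values were below all WT values, and 78.2% of the WT level remained. The log2 fold change was -0.34 (95% interval -0.52 to -0.16, adjusted p = 0.00675 from limma, 0.184 with WT as 1 sample). From the estimated depth, the values rest on 681 to 1274 fragments per library, a counting error of 2.80% to 3.83%.

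Among the scaffold and matrix proteins, *Srrm2* and *Srrm1* were lower in cKO and *Son* was higher. *Srrm2* (chr17:23790532-23824741, plus strand) encodes SRm300, a scaffold protein of the speckle core. The FPKM of *Srrm2* was 72.7, 72.8 and 72.7 in WT and 30.9, 33.5 and 25.8 in cKO. The cKO values were 2.42-fold lower in the mean, and the log2 fold change was -1.26 (0.097 standard error, adjusted p = 0.000146, 0.0297 with WT as 1 sample), and the groups did not overlap. *Srrm1* (chr4:135320484-135353321, minus strand) encodes SRm160, a splicing coactivator that works in a complex with SRm300. Its FPKM was 69.8, 66.8 and 68.0 in WT and 44.7, 39.4 and 37.8 in cKO. Every cKO value of *Srrm1* was below every WT value, and the log2 fold change was -0.74 (0.080 standard error, adjusted p = 0.000375, 0.0441 with WT as 1 sample).

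*Son* (chr16:91647506-91679221, plus strand) encodes the other scaffold protein, which also binds RNA and aids the splicing of weak splice sites. The FPKM of *Son* was 85.2, 86.0 and 83.9 in WT and 102, 99.7 and 93.1 in cKO. All cKO values were above all WT values, at 115% of the WT mean and a log2 fold change of 0.20 (95% interval 0.050 to 0.36, adjusted p = 0.0276). The adjusted p of *Son* was 0.419 with WT as 1 sample, and the log2 fold change was -0.11 under quantile normalization and -0.35 with every library scaled to the same FPKM total. *Son* shares 103 exonic nucleotides with *Donson* on the opposite strand, which had an FPKM of 10.3 to 10.8 in WT and 8.81 to 11.1 in cKO (adjusted p = 0.675). *Srrm2* shares 4 with *Elob*, listed as *Tceb2*, whose FPKM rose from between 393 and 398 to between 809 and 1117 (log2 fold change 1.21, adjusted p = 0.000417). The libraries were prepared with a directional kit, but whether the counting used strand is not stated.

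*Acin1* and *Pnn* encode acinus and pinin, which are alternative partners of RNPS1 and SAP18 in the ASAP and PSAP complexes. *Acin1* (chr14:54642161-54686931, minus strand) fell, whereas *Pnn* (chr12:59066884-59073998, plus strand) was not called with the median-of-ratios scaling alone. The FPKM of *Acin1* was 165, 166 and 165 in WT and 91.8, 89.6 and 88.8 in cKO. The 3 cKO values of *Acin1* lay closest together of the 10 genes, the highest being 1.03 times the lowest, and far below WT (90.1 ± 1.57, SD, n = 3). The log2 fold change was -0.87 (0.061 standard error, adjusted p = 0.000114, 0.0348 with WT as 1 sample).

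The FPKM of *Pnn* was 102, 105 and 107 in WT and 89.1, 113 and 91.6 in cKO. The cKO libraries fell on both sides of WT, with cKO 2 above all WT libraries and the other two below them. The log2 fold change was -0.11 (95% interval -0.33 to 0.12, adjusted p = 0.364, 0.726 with WT as 1 sample), and without cKO 2 it was -0.21 (adjusted p = 0.00527). *Pnn* was called lower under quantile normalization, at -0.44 (adjusted p = 0.0113), and with the same FPKM total, at -0.66 (adjusted p = 0.00486). With a correction for GC content and length it was called at -0.30 (adjusted p = 0.0182). *Acin1* shares 463 exonic nucleotides with *1700123O20Rik* on the opposite strand, which had an FPKM of 22.8 to 24.7 in WT and 30.5 to 34.5 in cKO (log2 fold change 0.43, adjusted p = 0.00202). It shares 75 with *4930579G18Rik*, also on the opposite strand, which stood at 1.68 to 1.81 in WT and 0.794 to 1.21 in cKO (log2 fold change -0.49, adjusted p = 0.0048).

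*Thrap3* and *Bclaf1* encode the paralogs TRAP150 and BCLAF1, RS-related proteins that act in splicing and in mRNA export. *Thrap3* (chr4:126164082-126202760, minus strand) had an FPKM of 96.5, 95.3 and 97.6 in WT and 98.4, 93.7 and 102 in cKO. The groups of *Thrap3* overlapped, and the log2 fold change was 0.023 (95% interval -0.13 to 0.18, adjusted p = 0.777, 0.934 with WT as 1 sample). *Bclaf1* (chr10:20312469-20344613, plus strand) had an FPKM of 65.1, 66.4 and 68.6 in WT and 65.1, 83.3 and 67.6 in cKO. Here cKO 2 was above all other libraries, and cKO 1 and cKO 3 were at or within the WT range. The log2 fold change of *Bclaf1* was 0.10 (95% interval -0.13 to 0.33, adjusted p = 0.401, 0.741 with WT as 1 sample), and it was -0.0043 without cKO 2. Both genes had a log2 fold change below 0 under quantile normalization and with the same FPKM total. It was called for *Thrap3* in both, at -0.31 (adjusted p = 0.00162) and -0.53 (adjusted p = 0.000399). For *Bclaf1* it was called with the same FPKM total, at -0.45 (adjusted p = 0.0261), and not under quantile normalization, at -0.14 (adjusted p = 0.321).

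The nuclear RNAs *Malat1* and *Neat1* are neighbours on chromosome 19, on the same strand and 22035 bp apart. *Neat1* (chr19:5824708-5845478, minus strand) had the greatest change of the 10 genes. Its FPKM was 60.7, 60.0 and 59.7 in WT and 19.7, 28.6 and 17.6 in cKO. All cKO values were below 30 and all WT values near 60, with the cKO mean at 36.6% of WT (22.0 ± 5.85, SD, n = 3). The log2 fold change was -1.44 (95% interval -1.82 to -1.07, adjusted p = 0.000392, 0.0318 with WT as 1 sample). The annotation of *Neat1* holds a transcript of 3004 nucleotides and one of 20771, and the gene-level FPKM does not separate them.

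*Malat1* (chr19:5795690-5802672, minus strand) had the highest FPKM of the 10 genes, at 306, 306 and 308 in WT and 307, 190 and 238 in cKO. The library cKO 1 was at the WT level, and cKO 2 and cKO 3 were below it, so that the groups overlapped. Its log2 fold change was -0.35 (95% interval -0.75 to 0.047, adjusted p = 0.104, 0.413 with WT as 1 sample). Without cKO 1 the value was -0.53 (adjusted p = 0.00893), and without cKO 2 it was -0.18 (adjusted p = 0.172). It was called under quantile normalization at -0.89 (adjusted p = 0.00178) and with the same FPKM total at -0.91 (adjusted p = 0.000704).

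The libraries were enriched for poly(A), and the mature 3′ end of *Malat1* is known to be formed by cleavage beside an A-rich tract of the gene and not by a poly(A) tail. The tract is shown as the feature by which such an RNA can be bound in poly(A) enrichment, from the annotated transcript Malat1-201 at chr19:5795958-5796069, with its run of 12 A in capitals.
*Malat1* A-rich tract: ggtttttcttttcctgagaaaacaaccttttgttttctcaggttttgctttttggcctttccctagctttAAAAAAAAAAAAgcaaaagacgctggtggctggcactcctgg
The longest run of A was 7 in the transcript Neat1-201 and 5 in Neat1-202, the transcript of 3004 nucleotides. Runs within an annotated sequence do not tell whether the RNA ends in a poly(A) tail. How well either RNA was recovered in poly(A) enrichment was not measured.

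**Figure D3:**
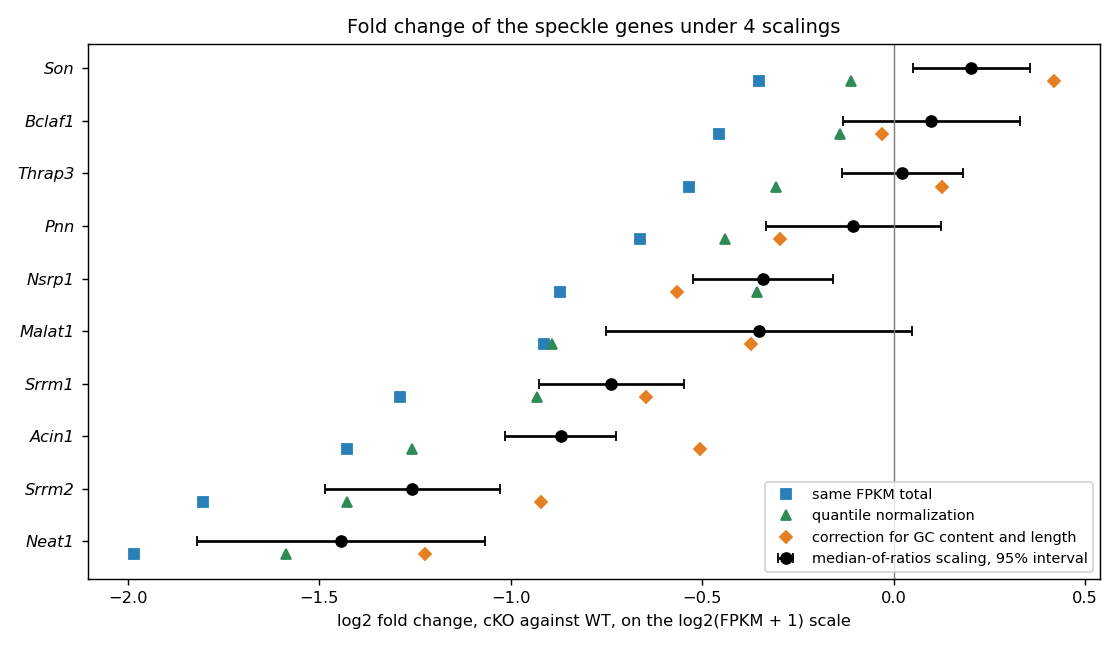
Log2 fold change of cKO against WT for the 10 genes on the log2(FPKM + 1) scale, from the median-of-ratios scaling (black, with 95% intervals from limma), the same FPKM total (blue), quantile normalization (green) and the correction for GC content and length (orange). *Neat1*, *Srrm2*, *Acin1*, *Srrm1* and *Nsrp1* are below 0 in all 4, whereas *Son* is at 0.20 and 0.42 in 2 of them and at -0.35 and -0.11 in the other 2.

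Summed over all genes, the FPKM of a library came to between 521296 and 531517 in WT and between 701396 and 850548 in cKO, and scaling every library to the same total moved the median of all tested genes to -0.45, whereas it was 0.029 under quantile normalization. With the same total, the 5 lower genes had log2 fold changes from -1.98 for *Neat1* to -0.87 for *Nsrp1*. Against the median of -0.45, *Son* at -0.35 was above most genes, and *Thrap3* at -0.53, *Bclaf1* at -0.45 and *Pnn* at -0.66 were near or below it. The 10 genes also have long transcripts, with a median of 5086 nucleotides for the longest transcript against 3002 over the tested genes. Across 10267 tested genes with a known transcript, the log2 fold change ran against length (Spearman's rho -0.30) and GC content (rho -0.33), given as a description across genes that are not independent of each other. With both corrected for, the log2 fold change was -1.22 for *Neat1*, -0.92 for *Srrm2*, -0.65 for *Srrm1*, -0.57 for *Nsrp1*, -0.50 for *Acin1* and -0.30 for *Pnn*, all called lower. *Son* was called higher, at 0.42 (adjusted p = 0.00122 from limma). Among all genes, 2754 were called lower and 3064 higher with this correction. With this correction and WT as 1 sample together, 0 of the 10 genes were called by limma (5 lower and 1 higher at an unadjusted p under 0.05), at adjusted p of 0.0793 to 0.110 for *Srrm2*, *Srrm1*, *Neat1* and *Acin1*.

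A ratio of 2 genes within a library does not depend on the scaling between libraries, and 4 such ratios were compared. The ratios were not corrected for transcript length or GC content, in which the genes of a pair differ. The ratio of *Neat1* to *Malat1* was 0.198, 0.196 and 0.194 in WT and 0.0642, 0.151 and 0.0740 in cKO. All cKO ratios were lower, by 1.13 in the mean on the log2 scale. The ratio of *Srrm2* to *Srrm1* was 1.04, 1.09 and 1.07 in WT and 0.692, 0.850 and 0.681 in cKO, so that *Srrm2* passed from just above *Srrm1* to below it in every cKO library. The ratio of *Acin1* to *Pnn* was 1.61, 1.59 and 1.54 in WT and 1.03, 0.795 and 0.970 in cKO, a difference of -0.77 on the log2 scale. In each of these 3 ratios the groups did not overlap (exact two-sided permutation test, p = 0.1, which is as small as 3 against 3 libraries can give, and 0.133 after Benjamini-Hochberg adjustment over the 4 ratios). In these 3 pairs the first gene has the longer and more GC-rich transcript. For *Acin1* and *Pnn*, the log2 fold changes were -0.87 and -0.11, and -0.50 and -0.30 with the GC and length correction. Those of *Srrm2* and *Srrm1* were -1.26 and -0.74, and -0.92 and -0.65 with it. Those of *Neat1* and *Malat1* were -1.44 and -0.35, and -1.22 and -0.37 with it. For *Thrap3* to *Bclaf1* the ratio was 1.48, 1.44 and 1.42 in WT and 1.51, 1.12 and 1.52 in cKO (log2 difference -0.077, exact permutation p = 1), and the cKO libraries lay on both sides of WT.

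**Figure D4:**
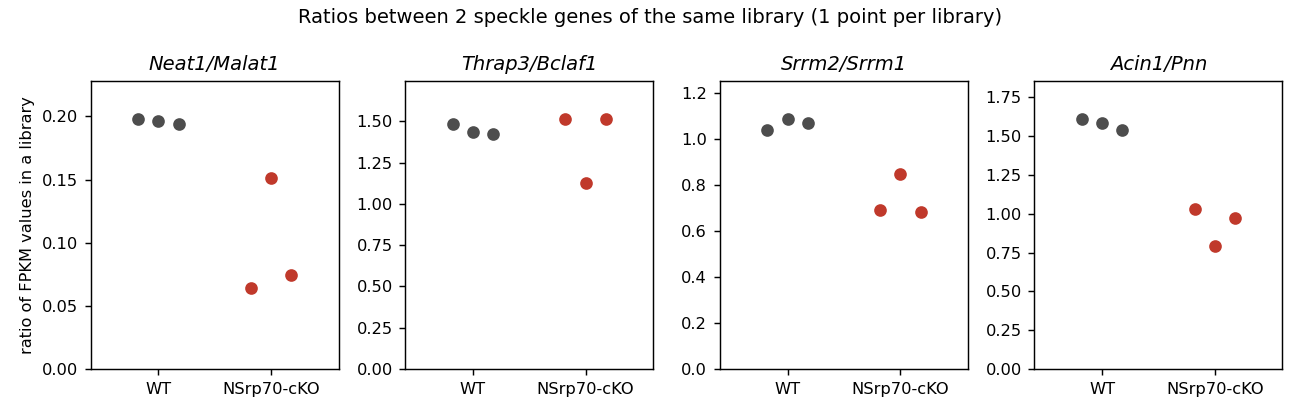
Ratio of the FPKM values of 2 genes in the same library, with 1 point per library, 3 WT (grey) and 3 NSrp70-cKO (red), on linear axes from 0. The cKO points lie below all WT points for *Neat1* to *Malat1*, *Srrm2* to *Srrm1* and *Acin1* to *Pnn*, and on both sides of them for *Thrap3* to *Bclaf1*.

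The order of the 10 genes by FPKM, a level per length of transcript, differed between the genotypes. In WT it ran *Malat1*, *Acin1*, *Pnn*, *Thrap3*, *Son*, *Srrm2*, *Srrm1*, *Bclaf1*, *Neat1* and *Nsrp1*, and among neighbours in this order only the ranges of *Srrm1* (66.8 to 69.8) and *Bclaf1* (65.1 to 68.6) overlapped. In cKO *Malat1* still had the highest level, and *Acin1* stood behind *Thrap3*, *Son* and *Pnn*. The cKO ranges of *Thrap3* (93.7 to 102), *Son* (93.1 to 102) and *Pnn* (89.1 to 113) overlapped, as did those of *Pnn* and *Acin1* (88.8 to 91.8). *Bclaf1*, *Srrm1*, *Srrm2*, *Neat1* and *Nsrp1* followed, and the ranges of *Srrm2* (25.8 to 33.5) and *Neat1* (17.6 to 28.6) overlapped there, as did those of *Neat1* and *Nsrp1* (15.0 to 17.7) by a small margin. The cKO libraries did not vary alike in all genes. Of the 3, cKO 2 had the highest FPKM of *Srrm2*, *Pnn*, *Bclaf1* and *Neat1* and the lowest of *Thrap3* and *Malat1*, with the highest over the lowest value ranging from 1.03 for *Acin1* to 1.62 for *Malat1* and *Neat1*.

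Other genes of the speckle and paraspeckle were read from the same fit in 3 lists of 45 genes, all of which were tested. Together 16 were lower, 15 higher and 14 not called, with a median log2 fold change of 0.011 (0.039 over all genes), so that their counts were near the 29.8% and 35.8% of all genes. With WT as 1 sample, 5 were lower and 2 higher.

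Among 7 genes of the exon junction complex and the RNPS1 complexes, 4 were higher, 1 was lower and 2 were not called (median log2 fold change 0.38). The exon junction complex is left on mRNA at splice junctions, and *Casc3*, which encodes its subunit MLN51, was the lower gene. The FPKM of *Casc3* was 31.6 to 32.2 in WT and 13.0 to 19.5 in cKO (log2 fold change -1.01, adjusted p = 0.000703, 0.0411 with WT as 1 sample). The paralogs *Magoh* and *Magohb*, whose product pairs with that of *Rbm8a* in the core of the complex, were higher at log2 fold changes of 0.91 (156 to 161 against 262 to 331, adjusted p = 0.000364, 0.0473 with WT as 1 sample) and 1.10 (11.2 to 12.4 against 21.2 to 31.8, adjusted p = 0.000581, 0.0366 with WT as 1 sample). *Rbm8a* itself was at 35.7 to 38.9 in WT and 45.0 to 52.2 in cKO (log2 fold change 0.38, adjusted p = 0.00397, 0.146 with WT as 1 sample). Of the shared partners of *Acin1* and *Pnn*, *Sap18* was higher (5.07 to 5.50 against 7.32 to 8.39, log2 fold change 0.48, adjusted p = 0.0016, 0.0882 with WT as 1 sample). *Rnps1* stood at 78.9 to 79.9 in WT and 67.5 to 76.3 in cKO (log2 fold change -0.17, adjusted p = 0.062).

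Among 11 paraspeckle proteins, 4 were lower, 3 higher and 4 not called (median log2 fold change 0.011), and 0 were called by limma with WT as 1 sample (1 lower and 2 higher at an unadjusted p under 0.05). *Sfpq* and *Nono* encode partners of 1 family that bind *Neat1* RNA. *Sfpq* was at 255 to 264 in WT and 178 to 186 in cKO (log2 fold change -0.51, adjusted p = 0.000745), and *Nono*, a gene of chromosome X, was at 283 to 290 and 380 to 459 (0.56, adjusted p = 0.00213). *Nudt21*, which encodes a subunit of the 3′ end processing factor CFIm, was at 93.4 to 100.5 in WT and 131 to 152 in cKO (0.55, adjusted p = 0.000939).

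Of 27 other RS-rich or speckle-located proteins, 11 were lower, 8 higher and 8 not called (median log2 fold change -0.042), and 4 were lower and 0 higher with WT as 1 sample (7 lower and 5 higher at an unadjusted p under 0.05). *Arglu1*, which encodes an arginine- and glutamate-rich splicing modulator, was at 90.8 to 93.0 in WT and 35.6, 60.6 and 39.1 in cKO (log2 fold change -1.05, adjusted p = 0.00211). *Scaf1*, which encodes an RS-rich protein that binds RNA polymerase II, was at 35.2 to 38.0 in WT and 15.4 to 22.6 in cKO (-1.0, adjusted p = 0.000868). *Luc7l3*, which encodes a protein of the U1 snRNP, rose from between 66.4 and 69.5 to between 89.7 and 133 (0.68, adjusted p = 0.00431). *Rsrc1*, which encodes an RS-rich splicing factor, rose from between 9.90 and 10.4 to between 13.7 and 19.1 (0.66, adjusted p = 0.00267). Of these 4, *Scaf1* was called with WT as 1 sample (adjusted p = 0.0433).

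**Figure D5:**
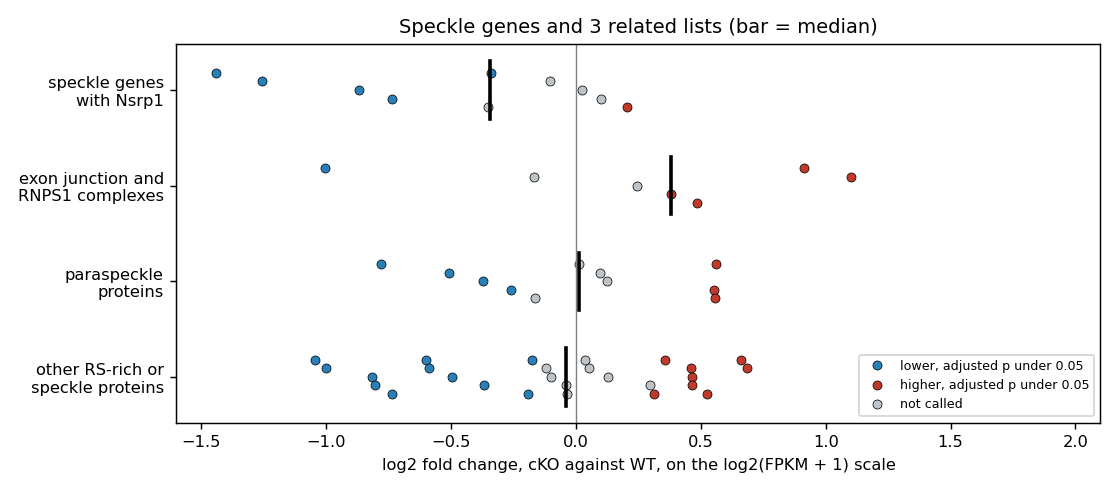
Log2 fold change of cKO against WT on the log2(FPKM + 1) scale, with 1 point per gene, for the 10 speckle genes and 3 related lists of 7, 11 and 27 genes. Blue and red points were called lower and higher by limma, grey points were not called, and black bars mark the medians, which are -0.35, 0.38, 0.011 and -0.042 from top to bottom.

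Patterns were compared by the root-mean-square difference of log2(FPKM + 1) over the 6 libraries, each gene centred on its WT mean. By this measure *Capn5* (0.0276), *Tnrc6b* (0.0305) and *Oplah* (0.0343) had the pattern most like that of *Nsrp1* among the tested genes. The FPKM of *Tnrc6b* was 17.0 to 17.3 in WT and 14.2, 12.9 and 12.7 in cKO. *Oplah* reached an FPKM of 1 only in WT, at 1.05 to 1.13 against 0.775, 0.618 and 0.525 in cKO. Adding 1 to values this small shrinks their fall, so the likeness of *Oplah* to *Nsrp1* in size rests on the added 1. *Capn5*, *Tnrc6b* and *Oplah* had the same order of cKO libraries as *Nsrp1*, which their choice by likeness favours. Of the other 9 speckle genes, *Malat1* was nearest at 0.162, ranked 1324 among the tested genes.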

How the data were processed

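RNA of sorted DP thymocytes from 3 WT and 3 NSrp70-cKO samples was sequenced from poly(A)-enriched directional libraries. Per the methods and the labels, the authors used fastx trimmer, Tophat (mm10) and Cufflinks, and deposited 1 FPKM value per gene symbol and library. Tool versions, the annotation used for counting and its strand setting are not given in the sources used here. Sample labels gave the groups and replicate numbers.

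FPKM values were divided by median-of-ratios size factors, and log2(FPKM + 1) of the 10326 genes that reached an FPKM of 1 in 3 or more libraries was fitted by genotype with limma 3.58.1 (lmFit, eBayes with a trend) in R 4.3.3, two-sided, with Benjamini-Hochberg adjustment over all tested genes and a threshold of 0.05. A count model such as that of the study was not used, since FPKM values are not counts. Log2 fold changes on this scale understate the change of low genes. Depth was estimated at single-transcript genes from FPKM steps of 1 fragment, with an assumed fragment length of 200 nucleotides. Between 71.0% and 77.9% of the low values lay within 0.1 of a whole fragment. Intervals of counting error cover counting error only. Ratios were tested by exact permutation (scipy 1.17.1). The limma script was tested on simulated data with the same spread in both groups. There it called 83 of 100 genes changed 2-fold, 98 of 100 changed 4-fold and 8 unchanged genes. The simulation does not cover WT libraries that vary less than the cKO libraries, as they did here.

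Of the 23183 symbols, 22148 matched GENCODE mouse release 21 (GRCm38) by name and 666 through RefSeq synonyms. Sequences were read from the transcripts of that release and, for the primers, from the study's supplement, which also gave the floxed exon (in its targeting scheme) and no measured value. Protein and promoter sequences were not used here.

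The genes and lists were chosen with earlier results of these data known. Besides the 10 genes, the text names for each list the 2 called genes with the largest and the 2 with the smallest log2 fold change, overlapping neighbours, the marker genes and the 3 genes most like *Nsrp1*. *Rnps1* and *Sap18* were named in addition, as partners of *Acin1* and *Pnn*, after their values were seen. A gene that the rule names is not reported here. Alternatives were the pseudocount, the filter, the scaling, the trend, a replicate block, a correction for GC content and length (natural splines with 5 degrees of freedom), the mean of the WT libraries as 1 sample and each replicate left out. The 3 settings that join WT as 1 sample with another change were chosen after seeing the data.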

Additional observations from a re-analysis of the deposited data

How the results depend on the processing

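*Nsrp1*, *Srrm1*, *Srrm2*, *Acin1* and *Neat1* stayed lower in cKO under all 19 alternatives. *Neat1*, *Srrm2*, *Srrm1* and *Acin1* were called in 18 of them, and *Nsrp1* in 16. With WT counted as 1 sample, *Nsrp1* was not called at -0.34, nor with quantile normalization in addition (-0.36) or the correction for GC content and length in addition (-0.57). Counted as 1 sample, WT left 902 of all genes lower and 739 higher, 0 of the 10 genes higher, and 5 lower and 2 higher of the 45 listed genes. With quantile normalization added, these were 937 and 661, 0, and 8 and 1. With the GC and length correction added, they were 22 and 4, with 0 of the 10 genes and 0 of the listed genes called in either direction. With the same FPKM total added, 3077 of all genes, 6 of the 10 and 20 of the listed genes were lower, and 129, 0 and 0 were higher. Scaling to the same FPKM total alone gave 6182 lower and 903 higher genes, 10 of the 10 lower and 0 higher, and 29 lower and 2 higher listed genes. Quantile normalization called 8 of the 10 lower and 0 higher, with 3090 lower and 3434 higher of all 10326 genes. Under quantile normalization and the same FPKM total, the direction changed for *Son* (-0.11 and -0.35), *Thrap3* (-0.31 and -0.53) and *Bclaf1* (-0.14, and -0.45, or -0.46 with WT as 1 sample). *Bclaf1* was also at -0.030 after the GC and length correction, -0.0043 without cKO replicate 2, and *Thrap3* at -0.0093 without cKO replicate 3. The cause of these changes was not tested.

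Leaving out 1 replicate at a time gave 2504 to 3554 lower and 3073 to 4113 higher genes, 5 to 6 of the 10 lower and 0 to 1 higher, and 11 to 19 lower and 15 to 17 higher listed genes. *Son* was not called without WT replicate 1, 2 or 3 (adjusted p 0.0980 to 0.117). Log2 fold changes ran from -0.41 to -0.29 for *Nsrp1*, -0.0093 to 0.061 for *Thrap3* and -0.0043 to 0.16 for *Bclaf1*. The ratio of *Thrap3* to *Bclaf1* differed by -0.15 to 0.066 on the log2 scale. Those of *Neat1* to *Malat1* differed by -1.51 to -0.89.

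Nothing in the study says that same-numbered libraries belong together. The deviations of same-numbered libraries had correlations of -0.022, 0.038 and 0.031. WT libraries differed by little more than counting noise, so these correlations cannot tell whether the libraries were paired. With the replicate block, 2954 genes were lower and 3513 higher, *Nsrp1* kept -0.34 (adjusted p = 0.0185) and the count of the 10 genes was 5 lower and 0 higher, *Son* being lost (adjusted p = 0.0836). The estimated depth limits low genes most, and the counting error of *Nsrp1*, the lowest of the 10 genes, was 2.80% to 3.83%.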
